A study of Oryza sativa with 60 samples.

Results

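The 8 genes described here encode the light-harvesting chlorophyll a/b-binding proteins of photosystem II in rice, the Lhcb family. They comprise 3 copies of Lhcb1 and a single gene each for Lhcb2, Lhcb3, Lhcb4, Lhcb5 and Lhcb6. They were picked by gene identifier from the 38978 genes of the expression table. Of the 9126 pseudouridine (Ψ) sites in the mRNA map, 37 fell inside the span of a member on its strand. The table itself carries identifiers without names, so the protein names are those given with the choice of members.

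The study mapped Ψ, an isomer of uridine, in polyA+ RNA of the rice cultivar Nipponbare by bisulfite-induced deletion sequencing (BID-seq). The 60 samples formed 12 groups, each with 2 untreated input libraries and 3 bisulfite-treated libraries. Plumule (the embryonic shoot) and radicle (the embryonic root) were taken from young germinated seed, each in a dark and a light group, and the labels do not describe the light or its length. Seedlings were taken at 8 days and at 2 weeks. Heading was sampled as straw, flag leaf and panicle. The last stage, 10 days after anthesis (10 DAA), was sampled as flag leaf, as embryo and as endosperm. Every group was Nipponbare, with no mutant or chemical treatment named in the labels. Each group had 2 expression columns, called replicate 1 and replicate 2 here, with values in TPM, a transcript level scaled for gene length and library size. Nothing in the labels states that replicates came from separate plants, so the p-values below measure only the spread between these libraries.

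Lhcb proteins bind chlorophyll and carotenoids in the thylakoid membrane of the chloroplast and pass absorbed light energy to the core of photosystem II. Lhcb1, Lhcb2 and Lhcb3 assemble into the trimers of LHCII, the most abundant antenna complex of leaves. Lhcb4 (CP29), Lhcb5 (CP26) and Lhcb6 (CP24) are the minor antenna, monomers that sit between the trimers and the core. The proteins are encoded in the nucleus, and in dark-grown shoots of many plants their mRNAs are low and rise on illumination, when chlorophyll synthesis begins.

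On the IRGSP-1.0 assembly, the Lhcb1 copies were Os01g0600900 on chromosome 1 (23607363 to 23608541, plus strand), Os01g0720500 on chromosome 1 (30030998 to 30032054, plus strand) and Os09g0346500 on chromosome 9 (10845779 to 10847012, plus strand). Lhcb2 was Os03g0592500 on chromosome 3 (22000043 to 22001240, plus strand) and Lhcb3 was Os07g0562700 on chromosome 7 (22487434 to 22488617, plus strand). Lhcb4 was Os07g0558400 on chromosome 7 (22316343 to 22317935, minus strand). Lhcb5 was Os11g0242800 on chromosome 11 (7659701 to 7662180, plus strand) and Lhcb6 was Os04g0457000 on chromosome 4 (22835913 to 22837163, minus strand). For each Lhcb1 copy the length used for TPM equalled the span, so the gene model held no intron, whereas the spans of the other genes exceeded their lengths by 89 bases (Lhcb2) to 1295 bases (Lhcb5).

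The Ψ sites are shown first by the 7 bases around them, since the same heptamers came back in several members. Each line gives the bases 5′ to 3′ as the site table writes them, with the modified position in the centre as a capital T (a U in the RNA). Positions are counted from 1 at the 5′ end of the gene's span. Whether a site lay in coding or untranslated sequence was not analysed here.
Os01g0600900 (Lhcb1), base 293: gggTggg
Os09g0346500 (Lhcb1), base 292: gggTggg
Os03g0592500 (Lhcb2), base 368: gggTggg
Os07g0562700 (Lhcb3), base 449: gggTggg
Os01g0600900 (Lhcb1), base 348: agcTgga
Os09g0346500 (Lhcb1), base 347: agcTgga
Os01g0600900 (Lhcb1), base 578: gggTacc
Os09g0346500 (Lhcb1), base 577: gggTacc
Os09g0346500 (Lhcb1), base 367: cggTggg
Os03g0592500 (Lhcb2), base 443: cggTggg
Os09g0346500 (Lhcb1), base 386: cgcTcgg
Os03g0592500 (Lhcb2), base 675: cgcTcgg

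These 12 sites were listed because they show which modified positions recurred between LHCII genes. In Os01g0600900 and Os09g0346500 the heptamer gggTggg came first, agcTgga followed after 55 bases and gggTacc after a further 230 bases. In both Os09g0346500 and Lhcb2, gggTggg was followed after 75 bases by cggTggg. The heptamer cgcTcgg occurred in both as well, but 19 bases after cggTggg in Os09g0346500 and 232 bases after it in Lhcb2. No heptamer of the minor antenna genes recurred in another member. Over the whole map, gggTacc was rare, with 4 sites of 9126, of which the Lhcb1 copies hold 2, while gggTggg had 46 and cgcTcgg 149. As near-identical stretches of the copies can share reads, the values at these matched sites are not independent of each other.

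Some facts of the libraries bear on every result. The TPM values corresponded to between 2109737 and 9006629 reads per library, of which the 8 genes held 0.00340% to 2.45%. The read equivalents of the Lhcb1 copies, of Lhcb2 and of Lhcb3 were whole numbers (within 0.02) in at most 2 of 24 libraries, so reads matching several genes may have been divided among them, and the split between the copies is uncertain. The pairs of plumule dark, plumule light and endosperm libraries differed by no more than sampling noise in a chi-square test of their counts. The test took 9276, 8697 and 9394 genes in turn, not all genes, and does not show this for each Lhcb gene. Each of these pairs of libraries was counted as 1 sample in the levels and is given as a mean with no SD. In the fits below these libraries entered separately, and a fit with each pair averaged to 1 library is given where it ends a call. Radicle light replicate 1 stood apart from its pair. Its log2 profile had a Pearson r of 0.914 with replicate 2, against 0.986 to 0.994 within the other groups, and 0.896 and 0.897 with the endosperm libraries. The 5 genes of the endosperm marker list lay at 513 to 7986 TPM in it and at 0 to 9.64 TPM in replicate 2. The 2 root markers were present at 191 and 75.1 TPM, against 364 and 143 TPM in replicate 2. The endosperm, root, embryo and flower lists were highest in sum in libraries of their own organ. Root markers lay at 411 and 405 TPM in dark radicle and at most 17.8 TPM outside the radicle. The leaf list was highest in 8-day seedlings (17198 and 18348 TPM), above the flag leaf at heading (14722 and 15973 TPM). Markers of other organs were present in some groups, such as endosperm markers at 5798 and 5876 TPM in the embryo and embryo markers at 718 and 686 TPM in endosperm and 257 and 256 TPM in dark plumule.

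This library touched the Lhcb results directly. In radicle light replicate 1 the 8 genes reached 42.0% to 52.1% of their mean endosperm levels, and all were higher there than in replicate 2, by 7.17-fold for Lhcb5 to 50.9-fold for Os01g0600900. The 3 Lhcb1 copies made up 39.0%, 17.2% and 43.8% of its Lhcb1 TPM, while in endosperm replicate 1 they made up 39.8%, 16.2% and 43.9%. Because all groups share 1 estimate of the spread, the gap between the radicle light libraries also widened the standard error of every Lhcb comparison, to 0.51 to 1.01 log2 units for a difference between 2 groups. Without that library these errors were 0.07 to 0.28 wherever radicle light took no part. Both fits are therefore given throughout, and radicle light without replicate 1 is 1 library, assumed to vary like the other groups. The part of endosperm RNA in the Lhcb values of this library was not tested.

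**Figure D1:**
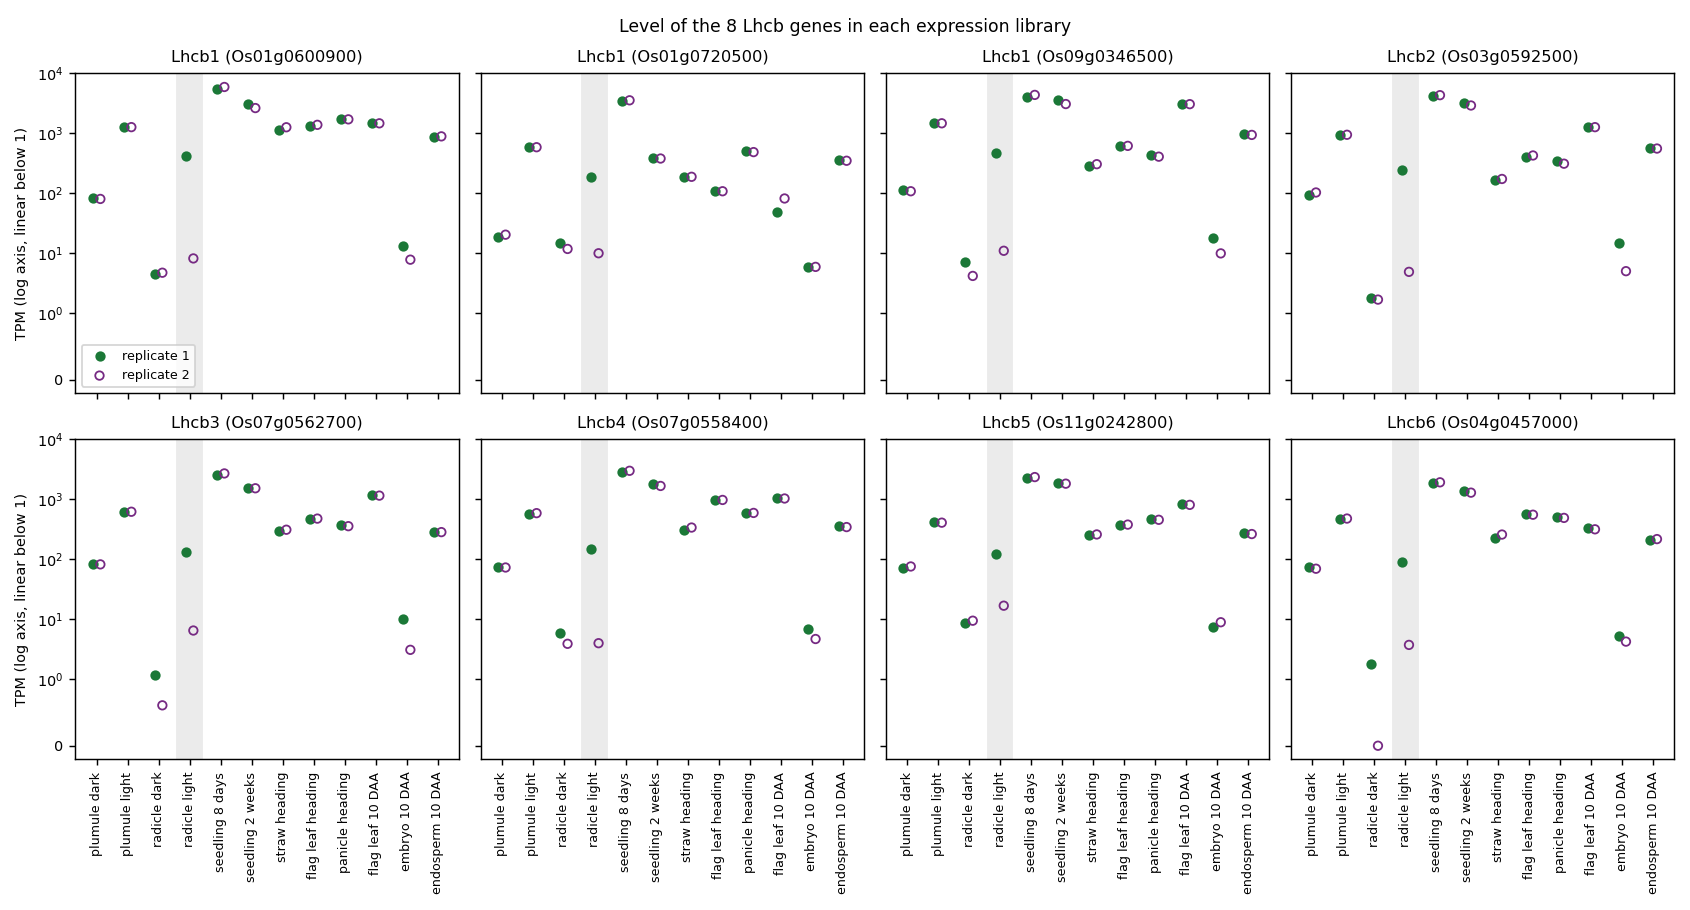
Level of each Lhcb gene in the 24 expression libraries, in TPM on a log axis that is linear below 1. Filled points are replicate 1 and open points replicate 2, and the grey band marks radicle light, where replicate 1 lay at 90.8 to 469 TPM and replicate 2 at 3.71 to 16.7 TPM.

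The level of the family was highest in young green seedlings and lowest in the dark radicle. Summed over the 8 genes, it was 27224 ± 1030 TPM (SD, n = 2) in 8-day seedlings and 15975 ± 1068 (SD, n = 2) in 2-week seedlings. The flag leaf had 4849 ± 60.4 TPM at heading and 9210 ± 108 at 10 DAA, the panicle 4862 ± 112 and the straw 2955 ± 178 (SD, n = 2 each). Light-treated plumule had 6322 TPM, dark plumule 610 TPM and endosperm 3860 TPM, each a mean over a pair counted as 1 sample. The embryo had 65.5 ± 22.7 TPM and the dark radicle 40.8 ± 6.45 TPM (SD, n = 2 each). Light-treated radicle had 1799 TPM in replicate 1 and 65.0 TPM in replicate 2, which lay between the embryo libraries (81.6 and 49.5 TPM). The 8 genes held 2.72% of all TPM in 8-day seedlings and 0.00408% in the dark radicle. In bulk tissue, fewer green cells and less Lhcb mRNA per cell cannot be told apart.

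All 8 genes had their highest mean in 8-day seedlings, from 5718 TPM for the Lhcb1 copy Os01g0600900 to 1873 TPM for Lhcb6. The lowest mean, leaving radicle light aside, was in the dark radicle for 6 of them and in the embryo for Os01g0720500 and Lhcb5. The second place went to 2-week seedlings for 7 genes, and for Os01g0720500 to light-treated plumule. In the order of Os09g0346500, 2-week seedlings (3595 and 3066 TPM) overlapped the flag leaf at 10 DAA (3117 and 3052 TPM). For Os01g0600900, light-treated plumule (1248 and 1264 TPM) overlapped straw (1118 and 1258 TPM). The other neighbours among the green groups did not overlap, while at the bottom of the order the embryo overlapped dark radicle for Lhcb4 and Lhcb5.

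Light-treated and dark plumules answer whether the shoot of the germinating seed raised its antenna mRNAs in the light. All 8 genes were higher in the light. The Lhcb1 copy Os01g0720500 stood at 18.9 and 20.4 TPM in the dark and at 580 and 585 TPM in the light, the steepest rise of the family. Lhcb5, which encodes CP26, moved least, from 70.1 and 75.2 TPM to 420 and 404 TPM. No dark library reached a light one for any member.

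On the log2(TPM + 1) scale, used for all differences and folds between groups below, Os01g0720500 rose by 4.82 ± 0.76 (SE, limma adjusted p = 0.000216) and Lhcb5 by 2.49 ± 0.51 (limma adjusted p = 0.00189). The other Lhcb1 copies rose by 3.94 (Os01g0600900) and 3.72 (Os09g0346500), Lhcb2 by 3.24, Lhcb3 by 2.88, Lhcb4 by 2.94 and Lhcb6 by 2.72, with limma adjusted p between 0.00874 and 0.0263. The LHCII genes lay between 2.88 and 4.82 and the minor antenna between 2.49 and 2.94. With all 24 libraries, 8 of 8 members passed the threshold of 0.05 as higher, beside 20.1% of the 29987 genes tested. Leaving out radicle light replicate 1 gave 8 of 8 again, beside 26.2%, and the largest adjusted p was 2.09e-06. When each pair that differed by no more than sampling noise entered as 1 library, only Os01g0720500 passed with radicle light replicate 1 kept (limma adjusted p = 0.0270), and 8 of 8 passed without it. With that library kept, leaving out any single plumule library left 3 of 8. The median of all genes shifted by 0.12 in this comparison, and the median of the members was 3.09. Other markers moved as well. The embryo markers went from 257 and 256 TPM in the dark to 24.3 and 19.3 TPM in the light, with 2 of 2 lower in both fits, and the leaf markers from 735 and 693 TPM to 1593 and 1559 TPM, with 2 of 5 higher with all libraries and 5 of 5 without radicle light replicate 1. Their part in the Lhcb difference was not tested.

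Genes acting beside the Lhcb proteins were read from lists written from general knowledge, whose identifiers the files do not name, so only counts are given. In the fit without radicle light replicate 1, the photosystem I antenna list had 6 of 6 genes higher in light-treated plumule, with a median log2 difference of 2.42. The chlorophyll synthesis list had 11 of 11 higher (median 1.44) and the list of nuclear photosystem II proteins and LHCII handling factors had 8 of 9 higher (median 1.33). With all 24 libraries these counts were 5, 10 and 4. Of the 2 GLK regulators, transcription factors that activate photosynthesis genes, 1 was higher in either fit.

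In the radicle the answer depended on which light library was read. The Lhcb1 copy Os01g0600900 lay at 4.45 and 4.74 TPM in the dark, at 417 TPM in light replicate 1 and at 8.20 TPM in light replicate 2. Lhcb3 lay at 1.16 and 0.606 TPM in the dark, which is 3.5 and 2.25 read equivalents, at 130 TPM in replicate 1 and at 6.44 TPM in replicate 2. Lhcb6 had 0 reads in dark replicate 2 and 6 in dark replicate 1. Light replicate 2 was above both dark libraries for 6 members, between them for Lhcb4 (3.96 TPM against 5.89 and 3.87) and below both for Os01g0720500 (10.0 TPM against 14.6 and 11.8).

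With both light libraries, 6 of 8 members passed as higher in the light, beside 13.9% of all genes, and their differences ran from 2.21 (Lhcb5) to 4.07 (Lhcb3). With replicate 2 alone, 6 of 8 passed as well, beside 16.9%, but the differences were smaller. Lhcb3 then rose by 2.00 ± 0.34, Lhcb6 by 1.49 ± 0.34 and Lhcb2 by 1.10 ± 0.33 (SE, limma adjusted p = 0.000461, 0.00449 and 0.0193). The Lhcb1 copies Os09g0346500 and Os01g0600900 rose by 0.90 and 0.72, and Lhcb5 by 0.82 (limma adjusted p = 0.0110, 0.00665 and 3.39e-06). Os01g0720500 and Lhcb4 gave -0.36 and -0.22 and did not pass. With both light libraries kept, 4 of 8 passed without dark replicate 1 and 2 of 8 without dark replicate 2, and with light replicate 2 left out instead 8 of 8 passed. The leaf markers moved with them, at 10.2 and 13 TPM in sum in the dark and 67.9 TPM in light replicate 2, with 5 of 5 higher in this fit (median 2.02, beside 0.86 for the Lhcb genes), and their part was not tested. These rises started from levels of few reads, since the 8 genes together had 152 and 149 read equivalents in the dark radicle and 124 in light replicate 2, a library of smaller depth.

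**Figure D2:**
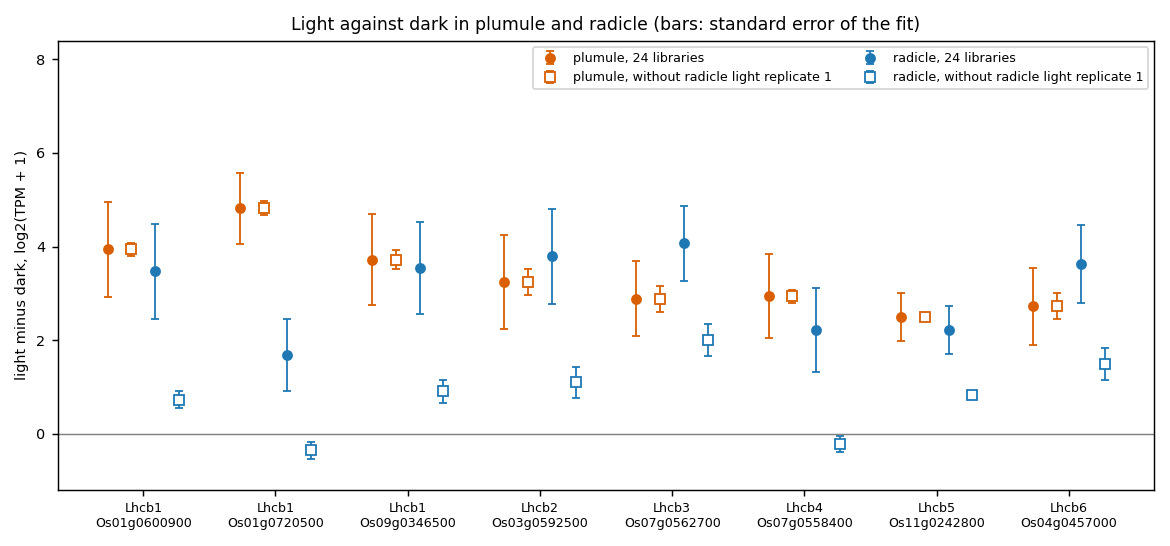
Difference between light and dark for each Lhcb gene on the log2(TPM + 1) scale, in plumule (orange) and radicle (blue), with the standard error of the fit as bars. Filled circles come from all 24 libraries and open squares from the fit without radicle light replicate 1, where the radicle values lie between -0.36 and 2.00 and the plumule values between 2.49 and 4.82.

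The light effects of the organs were compared as an interaction, plumule minus radicle. With all 24 libraries none of the 8 members passed in either direction, and 1 member had an unadjusted p under 0.05 in limma. Of the 29987 genes tested, 4540 were called in either direction, 69.2% of them as higher. Those called higher were 10.5% of all genes. In the fit without radicle light replicate 1, 6 of 8 passed with a larger light effect in the plumule, beside 14.5%. The difference was 5.18 ± 0.24 log2 units for Os01g0720500 and 1.66 ± 0.10 for Lhcb5 (SE, limma adjusted p = 4.07e-09 and 5.34e-08). For Lhcb3 (0.88 ± 0.44) and Lhcb6 (1.23 ± 0.44) it did not pass (limma adjusted p = 0.170 and 0.0589). If replicate 2 was left out instead, 7 members had the larger effect in the radicle, at -1.11 to -3.26, and Os01g0720500 alone stayed positive at 1.11.

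Plumule and radicle also differed between their dark groups. In the dark plumule 7 of the 8 genes stood between 69.0 and 115 TPM, whereas Os01g0720500 stood at 18.9 and 20.4 TPM. In the dark radicle this copy had the highest level of the family, 14.6 and 11.8 TPM, ahead of Lhcb5 at 8.67 and 9.39 TPM. Its difference between radicle and plumule in the dark was -0.54 ± 0.76, while those of the other members ran from -2.88 (Lhcb5) to -5.48 (Lhcb3). With all libraries 7 of 8 passed as lower in the radicle, beside 35.1% of all genes, and 8 of 8 without radicle light replicate 1, beside 38.6%. Os01g0720500 was the member that joined (limma adjusted p = 0.579 and 0.00498 in turn). The median of all genes shifted by -0.15. Here the chlorophyll synthesis list had 11 of 11 genes lower and both GLK regulators were lower, in either fit.

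From light-treated plumule to the 8-day seedling all 8 genes stood higher, by 1.51 for Os09g0346500 to 2.58 for Os01g0720500. Os01g0720500 went from 580 and 585 TPM to 3416 and 3539 TPM, and Lhcb4 from 559 and 582 TPM to 2838 and 2956 TPM. No library of the plumule reached one of the seedling in any member. With all libraries 4 of 8 passed, beside 19.6% of all genes: Os01g0720500, Lhcb3, Lhcb4 and Lhcb5. All 8 of 8 passed once radicle light replicate 1 was left out, beside 22.7%. With that library kept, averaging the near-identical pairs left Lhcb5 alone, and leaving out 1 library of either group left 1 or 2. The tissues differ in age and in organ, so these cannot be told apart.

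Between 8 days and 2 weeks the means of all 8 genes went down, by unequal amounts. Os01g0720500 dropped from 3416 and 3539 TPM to 384 and 379 TPM, a 9.09-fold fall (-3.18 ± 0.76 log2, SE, limma adjusted p = 0.00228). Os09g0346500, another Lhcb1 copy, went from 4056 and 4354 TPM to 3595 and 3066 TPM (-0.34 ± 0.98, limma adjusted p = 0.825). Os01g0600900 lay between, with 5534 and 5901 TPM against 3030 and 2628 TPM, 2.02-fold lower. With all libraries 1 of 8 passed as lower, beside 23.9% of all genes. When radicle light replicate 1 was left out, 5 of 8 passed, beside 27.3%: the copies Os01g0720500 and Os01g0600900 together with Lhcb3, Lhcb4 and Lhcb5. In the same step 4 of the 5 genes on the list of chlorophyll b reduction and chlorophyll breakdown were higher at 2 weeks (median 2.05), as were both GLK regulators, in either fit, beside 27.5% of all genes that were higher with all libraries and 31.0% without radicle light replicate 1. None of the 8 members passed as higher in either fit, and with all libraries 1 member, the one called lower, had an unadjusted p under 0.05 in limma.

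From the 2-week seedling to the flag leaf at heading all 8 means went down. Lhcb2 showed the largest difference, from 3145 and 2900 TPM to 398 and 426 TPM (-2.87 ± 1.01, SE, limma adjusted p = 0.0248). Lhcb5 fell from 1847 and 1804 TPM to 376 and 375 TPM (-2.28 ± 0.51, limma adjusted p = 0.00125) and Os09g0346500 fell 5.39-fold (limma adjusted p = 0.0474). Lhcb4 moved least, from 1806 and 1652 TPM to 952 and 966 TPM (-0.85 ± 0.90). The counts were 3 of 8 lower with all libraries, beside 27.2% of all genes, and 8 of 8 without radicle light replicate 1, beside 30.3%. Averaging the near-identical pairs with that library kept left Lhcb5 alone, and 1 of 8 passed when any single library of either group was left out. With all 24 libraries both GLK regulators were lower, while the other lists were split. The chlorophyll synthesis list had 3 of 11 higher and 6 of 11 lower. The photosystem I antenna list had 1 of 6 higher and 1 of 6 lower. The list of nuclear photosystem II proteins and LHCII handling factors had 2 of 9 higher and 2 of 9 lower.

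The flag leaf was sampled at heading and again at 10 DAA, and between these stages the members went different ways. Os09g0346500 stood at 614 and 616 TPM at heading and at 3117 and 3052 TPM at 10 DAA, a 5.01-fold difference. Lhcb2 went from 398 and 426 TPM to 1290 and 1263 TPM, Lhcb3 from 463 and 472 TPM to 1150 and 1140 TPM, and Lhcb5 from 376 and 375 TPM to 836 and 800 TPM. Os01g0600900 (1337 and 1381 TPM, then 1458 and 1463 TPM) and Lhcb4 (952 and 966 TPM, then 1058 and 1021 TPM) differed by less than their standard errors. Lhcb6 went down from 555 and 548 TPM to 328 and 313 TPM, and Os01g0720500 from 111 and 108 TPM to 48.6 and 81.8 TPM. So Lhcb4 and Lhcb6, partners in the minor antenna, had a ratio of 1.72 and 1.76 at heading and of 3.23 and 3.26 at 10 DAA.

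In the fit of all 24 libraries these differences did not pass: 0 of 8 were called higher, beside 13.3% of all genes, and 0 of 8 lower, beside 17.3%, with 2 members at an unadjusted p under 0.05 in limma. In the fit without that radicle library, 4 of 8 passed as higher (Os09g0346500, Lhcb2, Lhcb3 and Lhcb5), beside 16.8%, and 2 of 8 as lower (Os01g0720500 and Lhcb6), beside 21.6%. The values were 2.32 ± 0.20 for Os09g0346500 and -0.78 ± 0.28 for Lhcb6 (SE, limma adjusted p = 1.19e-07 and 0.0386). Under quantile normalization the small difference of Os01g0600900 changed sign, from 0.10 to -0.04. With all 24 libraries both GLK regulators were higher at 10 DAA, while the other lists were split. The leaf markers had 1 of 5 higher and 3 of 5 lower (median -1.16). The chlorophyll synthesis list had 2 of 11 higher and 4 of 11 lower (median -0.04). The list of nuclear photosystem II proteins and LHCII handling factors had 3 of 9 higher and 2 of 9 lower (median -0.78). The photosystem I antenna list had 1 of 6 higher and 1 of 6 lower.

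Among the organs at heading, straw and panicle were set against the flag leaf. Lhcb4 was the member lowest in straw relative to the flag leaf, at 302 and 335 TPM against 952 and 966 TPM, a 3.01-fold difference. Os01g0720500 went the other way, with 184 and 188 TPM in straw against 111 and 108 TPM, and in the panicle it reached 498 and 485 TPM. Os01g0600900 stayed between 1118 and 1747 TPM over the 3 organs, with 1118 and 1258 TPM in straw, 1337 and 1381 TPM in the flag leaf and 1747 and 1704 TPM in panicle.

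For straw against flag leaf, 0 of 8 passed as higher, beside 28.5% of all genes, and 0 of 8 as lower, beside 26.0%, with no member at an unadjusted p under 0.05 in limma. The fit without radicle light replicate 1 had 1 of 8 higher (Os01g0720500, 0.76 ± 0.15), beside 31.6%, and 5 of 8 lower (Os09g0346500, Lhcb2, Lhcb4, Lhcb5 and Lhcb6), beside 28.9%. The largest fall was that of Lhcb4, -1.59 ± 0.14 (SE, limma adjusted p = 4.93e-08). The value of Os01g0600900 was -0.20 and turned to 0.15 under quantile normalization.

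For panicle against flag leaf, 1 of 8 passed as higher with all libraries, beside 37.1% of all genes, and 0 of 8 as lower, beside 23.0%. The gene was Os01g0720500, at 2.16 ± 0.76 (SE, limma adjusted p = 0.0218). It no longer passed when any single panicle or flag leaf library was left out. Leaving out radicle light replicate 1 instead, 3 of 8 were higher in the panicle (Os01g0720500, Os01g0600900 and Lhcb5), beside 40.7%, and 2 of 8 lower (Os09g0346500 and Lhcb4), beside 25.5%. Lhcb6, at -0.16, turned to 0.02 under quantile normalization. The median of all genes shifted by 0.18 here.

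In the developing grain the antenna genes separated embryo from endosperm. All 8 were lower in the embryo, at -4.89 (Lhcb5) to -6.29 (Os01g0600900) log2 units. Os01g0600900 lay at 13.4 and 7.82 TPM in the embryo and at 882 and 887 TPM in the endosperm, 78.5-fold apart. Lhcb6 lay at 5.14 and 4.21 TPM and at 206 and 215 TPM, 37.4-fold apart. No embryo library came near an endosperm one.

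The count was 8 of 8 in both fits, beside 26.4% of all genes with all libraries and 29.6% without radicle light replicate 1, and the largest limma adjusted p with all libraries was 0.000147. The photosystem I antenna list also had 6 of 6 genes lower in the embryo in either fit (median -5.35), while the chlorophyll synthesis list had 7 of 11 lower with all libraries, 9 of 11 without radicle light replicate 1 and 2 of 11 higher in both. Of all genes, 27.6% and 30.3% were higher in the embryo in turn, and no member was. Of the 2 GLK regulators, 1 was higher and 1 lower in the embryo with all libraries. The embryo libraries differed from each other for some members, with 15.1 and 5.03 TPM of Lhcb2 and 9.95 and 3.07 TPM of Lhcb3. Beside these values, the endosperm libraries held leaf markers at 904 and 888 TPM in sum embryo markers at 718 and 686 TPM and flower markers at 128 and 127 TPM. The embryo libraries held leaf markers at 93.8 and 50.6 TPM, endosperm markers at 5798 and 5876 TPM and flower markers at 7 and 3.94 TPM. The leaf markers (5 of 5) and the flower markers (3 of 3) were lower in the embryo in both fits. Their part in the difference was not tested.

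The share of each member in the summed level described the make-up of the antenna mRNA, with no test. The minor antenna (Lhcb4, Lhcb5 and Lhcb6) made up 35.6% and 35.5% of Lhcb TPM in dark plumule and 23.0% and 23.1% in light-treated plumule. In the flag leaf it made up 39.2% and 38.6% at heading and 23.9% and 23.4% at 10 DAA. Dark radicle stood at 36.0% and 36.6%, light-treated radicle at 19.8% in replicate 1 and 37.6% in replicate 2, and endosperm at 21.3% in both libraries. Seedlings lay between, with 26.0% and 25.7% at 8 days and 30.0% and 31.1% at 2 weeks.

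Which Lhcb1 copy led also changed with the tissue. Os01g0600900 gave 70.6% and 71.8% of Lhcb1 TPM in straw, 64.9% and 65.6% in the flag leaf at heading and 65.4% and 65.6% in the panicle. At 10 DAA the flag leaf had 67.4% and 66.4% from Os09g0346500 instead. Os01g0720500 gave 26.3% and 25.7% in 8-day seedlings and 5.48% and 6.24% at 2 weeks. In the flag leaf at 10 DAA it gave 1.05% and 1.78%, whereas in the dark radicle, where the whole family was low, it gave 55.9% and 56.9%. The ratio of Os09g0346500 to Os01g0720500 was 0.482 and 0.355 in the dark radicle and 64.2 and 37.3 in the flag leaf at 10 DAA.

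**Figure D3:**
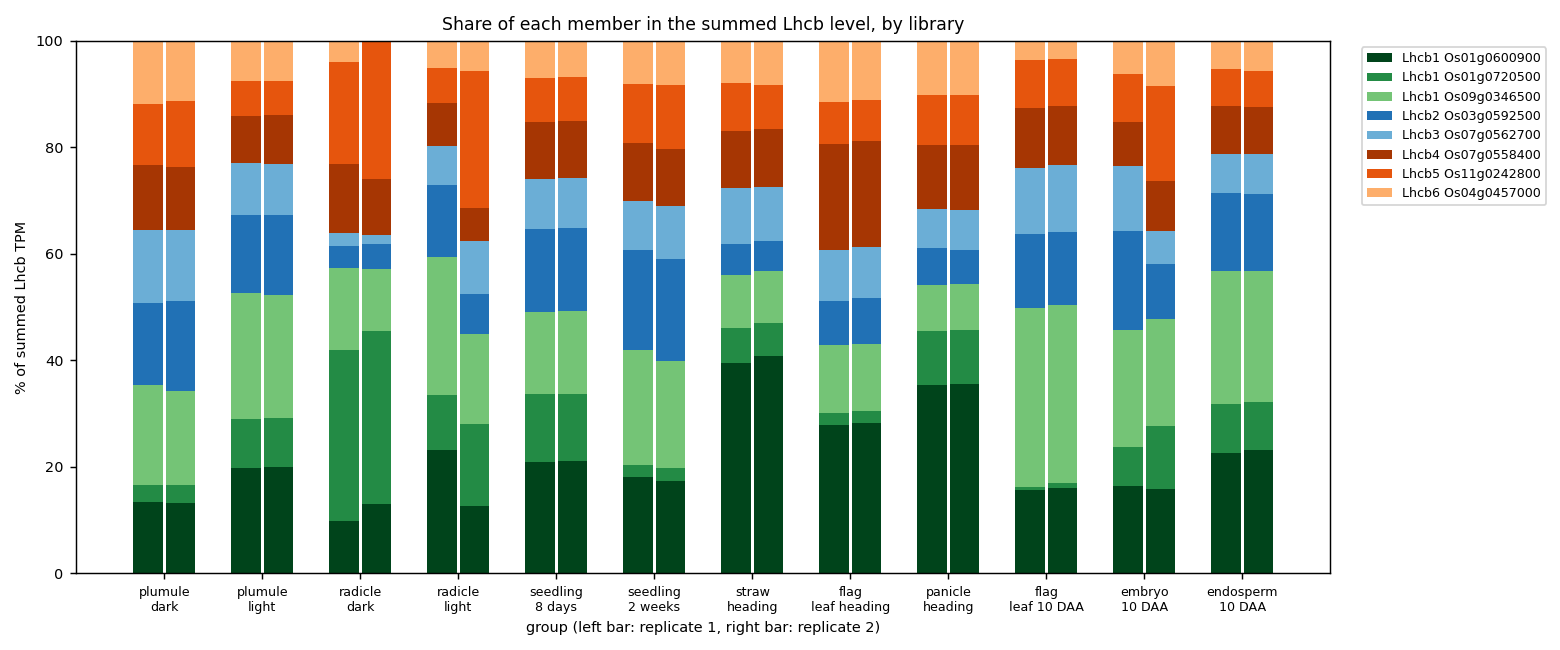
Share of each Lhcb gene in the summed Lhcb TPM of a library, in percent, with 2 bars a group (replicate 1 left, replicate 2 right). Greens are the Lhcb1 copies, blues Lhcb2 and Lhcb3, and browns the minor antenna, which fills 39.2% of the first bar of flag leaf at heading and 23.9% at 10 DAA.

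Across the 12 group means of log2(TPM + 1), the members followed each other closely, with Pearson r between 0.950 and 0.993 for every pair without Os01g0720500 and 0.817 to 0.880 for the pairs with it. The points share the 24 libraries, and the dark radicle and embryo at the low end weigh on every r. Of 6595 other genes at 32 TPM or more on average, the 5 with the pattern most like the mean of the family were Os06g0320500 (r = 0.9801), Os08g0435900 (0.9796), Os02g0197600 (0.9787), Os04g0414700 (0.9736) and Os08g0104600 (0.9723). The first 3 were entries of the photosystem I antenna list. Reading radicle light from replicate 2 alone left the same genes in the first 5 places.

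The Ψ sites were read from a table with 1 fraction per site and tissue, the calibrated share of RNA copies carrying Ψ, in which the authors had summed the reads of all replicates. There is therefore no replicate error, and the depth behind a fraction is unknown. A flag marks the tissues where a site passed the authors' p-value filter, in 11 of the 12 groups, since no flag column for dark plumule was present. Os09g0346500 had 9 sites, Os01g0600900 7, Lhcb5 6, Lhcb2 5, Lhcb4 5, Lhcb3 2, Lhcb6 2 and Os01g0720500 1. All 8 genes held at least 1 site, compared with 13.1% of all genes and 88.2% of the 263 genes whose mean level was at least that of Lhcb6, the lowest member. The median number of sites was 5 for the members and 3 for those 263 genes.

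Passed sites were most numerous where the level of the family was highest. The seedlings at 8 days had 25 passed sites in 8 genes, 2.17% of the 1153 passed sites of the map there. Those at 2 weeks had 22 in 7 genes (1.24% of 1781). The flag leaf had 11 at heading (0.674% of 1631) and 18 at 10 DAA (1.06% of 1699). Light-treated plumule had 11 (0.749% of 1468), straw 10 (0.585% of 1710), panicle 8 (0.499% of 1604) and endosperm 8 (0.709% of 1128). Of all sites in the map, whatever the flag, the members hold 37 of 9126. In the embryo, the dark radicle and the light radicle no member site passed, while 1844, 2396 and 1851 sites of the whole map did. Those 3 groups are also where Lhcb mRNA was lowest or rested on 1 library, and 22 of 36 sites with a value in the dark radicle were listed at 0. The fractions there moved in large steps, such as 52.8% at the Lhcb5 site at base 1223 in the dark radicle, and are not read further.

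**Figure D4:**
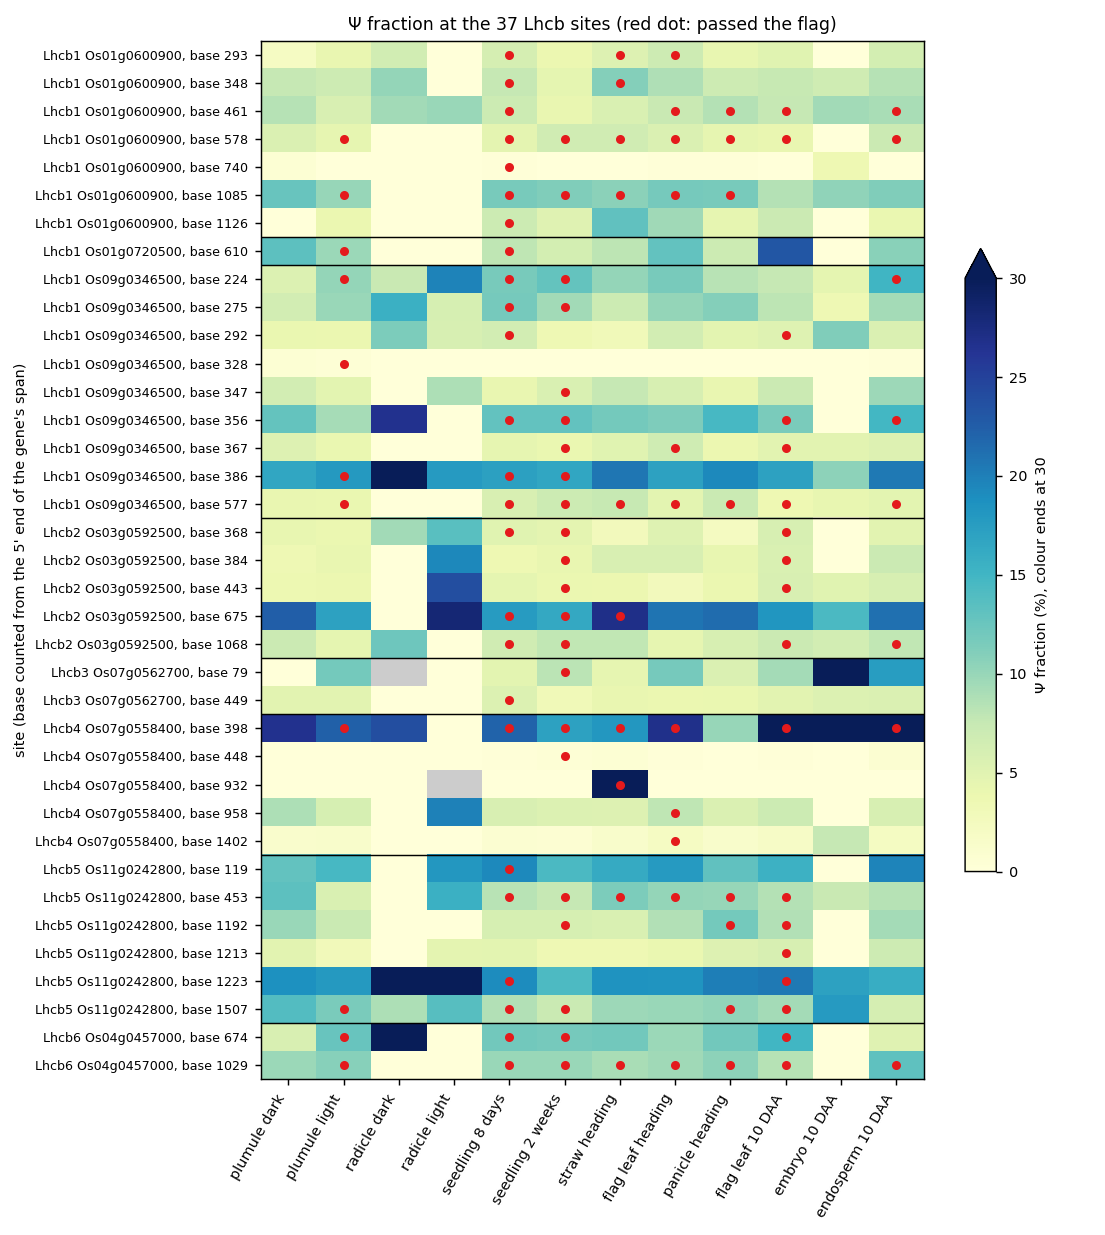
Ψ fraction in percent at the 37 Lhcb sites, 1 row a site by gene and base from the 5′ end of the span, in the 12 groups. Red dots mark groups where the site passed the flag (dark plumule has none), grey cells have no value, and the 8-day seedling column holds 25 dots while dark radicle, light radicle and embryo hold 0.

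The embryo and radicle groups, as above, are not read further. In each of the other groups the median fraction at the member sites was below that of the map. Every member site had passed in at least 1 tissue, and no median was taken over genes of like level. The closest medians were those of the flag leaf at heading, 7.86% for the members and 9.28% for the map. Over all sites whatever the flag, the medians were 6.44% for the members and 9.87% for the map at 8 days, 6.03% and 8.44% at 2 weeks, and 7.14% and 9.47% in endosperm. Among passed sites, which the filter selects, the gap was wider. Where a member site passed, the median was 8.31% in 8-day seedlings and 7.71% in 2-week seedlings, against 23.3% and 18.2% over all passed sites of those tissues. In endosperm the passed medians were 11.1% and 21.7%, and the members were below the map in every group where a member site passed. Of the 37 sites, 12 passed in 1 tissue only and 8 passed in 5 or more, a share of 21.6% against 9.66% for the whole map. The share of the map covers genes of every level, and none was taken over genes of like level. It is therefore not read as a trait of the members.

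The widest of them reached 8 tissues each. The heptamer gggTacc passed in 8 tissues in both Lhcb1 copies, at 4.16% to 7.04% in Os01g0600900 and at 3.55% to 7.43% in Os09g0346500. Lhcb6 had a site at base 1029 with the heptamer cgaTcgg, which passed in 8 tissues at 8.33% to 13.2%. In Lhcb4 the site at base 398, ggtTcga, passed in 7 tissues and had the widest range, from 17.0% in 2-week seedlings through 22.1% at 8 days and 33.2% in the flag leaf at 10 DAA to 44.6% in endosperm. The same heptamer marks 106 sites of the map.

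Light and dark plumule could be compared by their fractions only. At the Lhcb4 site ggtTcga they were 22.3% and 26.5%, at cgcTcgg of Os09g0346500 17.9% and 16.6%, and at cgcTcgg of Lhcb2 17.0% and 22.4%. The Lhcb6 site cgaTcgg had 10.8% in the light and 9.77% in the dark. The median over the 37 sites was 5.66% in light and 5.77% in dark plumule, while the summed level of the genes was 6322 and 610 TPM. No error can be put on these differences.

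Sites with 1 heptamer could be compared between members, with no error to set on the differences. For gggTggg the values where it passed were 5.29% to 6.80% in Os01g0600900, 5.27% to 6.44% in Os09g0346500, 4.60% to 5.86% in Lhcb2 and 5.40% in Lhcb3. For agcTgga they were 7.57% to 11% in Os01g0600900 and 5.73% in Os09g0346500. For cgcTcgg, whose place differs between the genes, they were 16.6% to 17.9% in Os09g0346500 and 16.3% to 26.9% in Lhcb2. In Lhcb5 the heptamer tgcTcgg occurred at 2 places, base 119 and base 1223, at 19.3% in 8-day seedlings for the first and 19.0% for the second. The bases GTGGG, with the Ψ at the T, were read on the strand of the gene at each site. They were shared by 8 of the 37 sites in 6 genes, 21.6%, and by 3.70% of all sites, and gggTggg is 1 of the heptamers that hold them, cggTggg another. Both of these heptamers recurred among these same sites, in genes of the same family. The sites are thus not independent, and the shares are not read as enrichment.

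A few sites stood out by their values. The Lhcb4 site at base 932, gtgTttt, was listed at 60.1% in straw, where it passed, and at 0 in the 10 other groups with a value. Sites in Os01g0600900 (base 740, ttcTtcg), Os09g0346500 (base 328, acgTtcg) and Lhcb4 (base 448, gtgTtcg) passed in 1 tissue each at only 0.222%, 0.433% and 0.362%. The single site of Os01g0720500, gcgTcgc at base 610, passed in light-treated plumule (9.75%) and 8-day seedlings (7.96%), the groups where this copy was highest. Higher fractions were listed without a pass in the flag leaf at 10 DAA (23.1%) and at heading (12.9%) and in endosperm (10.7%). Dark plumule, which has no flag, had 13.3%. Straw (8.00%), panicle (7.02%) and 2-week seedlings (6.29%) did not pass either. Where it passed thus does not show where the fraction was highest.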

How the data were processed

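Members and gene lists were chosen with earlier results of these data known. The authors deposited a gene table in TPM, scaled for gene length and library size; how it was made is not given in the sources used here, nor whether its columns come from input libraries only. The deposited Ψ fractions came from their BID-seq pipeline on IRGSP-1.0, with reads summed over the replicates of a tissue and the gap ratio calibrated. Precision rests on 2109737 to 9006629 read equivalents per library.

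The log2(TPM + 1) values were modelled in limma 3.58.1 (R 4.3.3) with a variance trend. Genes needed 1 TPM in 2 libraries, and p-values were adjusted by Benjamini-Hochberg over 29987 genes. All 24 libraries shared 1 estimate of the spread. The fits without radicle light replicate 1 and with averaged pairs were chosen after seeing the data. Named were the 8 members and the 5 genes of 32 TPM or more with the highest Pearson r to their mean over 12 groups. List genes were not named, as no source used here pairs their identifiers with names. The model was tested on simulated data, where the share of false calls exceeded the set threshold, so calls close to it are less certain. No per-sample column was left out.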

Additional observations from a re-analysis of the deposited data

Results flagged for a closer look

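With radicle light replicate 1 left out, the light effect of the 6 members below was larger in plumule than in radicle. That fit rests on 1 radicle light library. On the log2 scale the effect in plumule exceeded that in radicle by 3.22 for the Lhcb1 copy Os01g0600900, 5.18 for Os01g0720500, 2.82 for Os09g0346500, 2.13 for Lhcb2 (Os03g0592500), 3.17 for Lhcb4 (Os07g0558400) and 1.66 for Lhcb5 (Os11g0242800). With all 24 libraries 0 of 8 passed the interaction test in limma, beside 10.5% of all genes that were higher. Of the 8, 1 had an unadjusted p under 0.05. Leaving out replicate 2 in its place made 5 of these 6 values negative, all but that of Os01g0720500, and the part of endosperm RNA in replicate 1 was not tested.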

How the results depend on the processing

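Counts of members called depended on the libraries in the fit. Leaving out 1 library at a time gave 3 to 8 for plumule light against dark (3 when any single plumule library was left out), 2 to 8 for radicle light against dark, 0 to 8 for the interaction, 7 to 8 for radicle against plumule in the dark, 1 to 8 for 8-day seedling against light plumule, 1 to 5 for 2 weeks against 8 days, 1 to 8 for flag leaf at heading against 2 weeks, 0 to 6 for flag leaf at 10 DAA against heading, 0 to 6 for straw, 0 to 5 for panicle and 8 throughout for embryo against endosperm. Fitting only the compared libraries gave 0 for radicle light, where 7 genes were called over all genes. It gave 8 for the seedling, flag leaf, straw and panicle comparisons. The share over all genes in those fits is not given, so these counts are not read as a result about the members. The same holds for the counts that follow. A pseudocount of 10 gave 7 for 8-day seedling, 5 for flag leaf at heading, 1 for flag leaf at 10 DAA and 1 for the interaction, while a pseudocount of 0.1 and no filter each gave 2 for 8-day seedling. Averaged pairs gave 1 each for plumule light, 8-day seedling and flag leaf at heading, and with radicle light replicate 1 also left out 6 for the interaction, 8 for 8-day seedling, 4 for 2 weeks, 8 for flag leaf at heading, 5 for flag leaf at 10 DAA, 6 for straw and 4 for panicle.

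Some directions reversed. The interaction became positive with a pseudocount of 10 for Lhcb2 (0.74), Lhcb3 (0.61) and Lhcb6 (0.81), and without radicle light replicate 1, pairs averaged or not, for these genes (2.13, 0.88 and 1.23). It became negative without radicle dark replicate 1 for Os09g0346500 (-0.14). Over the radicle light libraries left out, it ran from -2.29 to 3.22 for Os01g0600900, -2.47 to 2.82 for Os09g0346500, -3.23 to 2.13 for Lhcb2, -3.26 to 0.88 for Lhcb3, -1.71 to 3.17 for Lhcb4, -1.11 to 1.66 for Lhcb5 and -3.05 to 1.23 for Lhcb6, and radicle light against dark from -0.36 to 3.71 for Os01g0720500 and -0.22 to 4.66 for Lhcb4. Quantile normalization turned flag leaf at 10 DAA (-0.04) and straw (0.15) for Os01g0600900, and panicle (0.02) for Lhcb6. The cause was not tested.

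Over all genes, 8226 were called for plumule light, 12436 with the compared libraries alone, 5226 without plumule light replicate 2, 5281 without plumule dark replicate 2 and 2642 with averaged pairs. For radicle light 7550 were called, 7 with the compared libraries alone, 4633 without radicle dark replicate 1 and 12091 without radicle light replicate 2. The interaction had 4540, 957 with the compared libraries alone, 1544 with averaged pairs, 6923 without radicle light replicate 1 and 10026 without replicate 2. Quantile normalization moved the share of higher calls from 73.2% to 54.2% in plumule light, 69.2% to 58.6% in the interaction and 61.8% to 45.7% in panicle.

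The replicate block changed no count (8 for plumule light against dark), and the numbers do not pair the libraries, since over 66 pairs of groups the correlation of deviations ran from -0.0538 to 0.0308. Depth limits the dark radicle and embryo values, which rest on 131 to 224 Lhcb reads a library. Sites at 10.0% or more in at least 1 of the 12 groups, whatever the flag, numbered 25. Some of these reached it only in radicle or embryo groups, and no single group had more than 13 (straw). Within 200 bases of the spans lay 37 sites.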
